A study of Rattus norvegicus with 6 samples.

Results

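Cytokine genes of primary rat vascular smooth muscle cells (VSMCs) were described here, namely the colony-stimulating factors Csf1, Csf2 and Csf3, the tumour necrosis factor gene Tnf, the interleukin-6 family genes Il6, Lif and Il11, and the interleukin-1 family genes Il1a, Il1b and Il33. These 10 genes were taken by gene symbol from the authors' table of 13526 genes. The table lists 8 of them, and Il1a and Il1b are not listed in it. The genes were chosen with their values in the comparison below already known, so their differences between the groups are given as a description, and nothing is read from how many of them the fit over all genes called.

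The cells came from the thoracic aorta of wild-type (WT) rats and had been induced to osteogenic differentiation, the change of VSMCs toward bone-forming cells that accompanies arterial calcification. All of them were cultured in osteogenic media (OM), a medium with 10 mM β-GP (β-glycerophosphate) and 3.5 mM CaCl2. The OM plus EMPA group, with 3 libraries, also received 1 μM empagliflozin, a drug that inhibits the glucose transporter SGLT2 of the kidney, and the OM group, with 3 libraries, did not. The labels give 5 days of treatment and the figure legend of the study a shorter time. The sample titles call the medium Pi and the treatment protocol calls it OM, the name used here. The cells grew out of the medial layer of the aorta of male rats and were used after passaging. Neither the labels nor the methods say whether the 3 libraries of a group were separate cultures or rats, so p-values measure only the spread between them, which may be technical. Cells kept without osteogenic media were not analysed here, and no value says how that medium itself changed a cytokine.

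Cytokines are small secreted proteins that carry signals between cells by binding receptors on the cell surface. TNF and IL-1 activate the transcription factor NF-κB, which switches on many inflammatory genes, among them further cytokines and its own inhibitors. The IL-6 family signals through the shared receptor chain gp130, encoded by Il6st, and the transcription factor STAT3. Colony-stimulating factors act mainly on myeloid cells, and in the vessel wall VSMCs can make several of these cytokines and so attract and sustain macrophages.

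Values are TPM, transcript abundances corrected for transcript length. They summed to 997954 to 998293 per library, so the depth behind each value is unknown. The limma fit compared the groups on log2(TPM + 1) for the 12564 genes whose mean reached 1 TPM, and a gene was called when its Benjamini-Hochberg adjusted p was 0.05 or lower. Differences on this log2 scale are OM plus EMPA minus OM, and they understate the change of genes with low TPM. Over all tested genes 6.92% were called, 4.86% lower (611 genes) and 2.06% higher (259 genes) with empagliflozin, a split that was 381 lower and 390 higher under median-ratio scaling of the libraries. Of 8 markers of smooth muscle, 7 were listed. They summed to between 2480 and 2930 TPM with empagliflozin and between 1760 and 2160 TPM in OM. Most of that was Tagln, at 2050 ± 172 TPM with empagliflozin and 1530 ± 152 TPM in OM (SD, n = 3 each). Of the 6 tested, Myh11 (log2 difference -0.17, SE 0.13) and Smtn (0.15, SE 0.06) were not called. The other 4 rose (Acta2, Tagln, Cnn1 and Lmod1). None of these 4 was called without OM plus EMPA replicate 2, only Cnn1 without OM replicate 1 or 3, and 2 of them without OM plus EMPA replicate 1 or 3 (log2 differences 0.36 to 1.08 over these fits). Of 17 markers of macrophages and other leukocytes, 3 were listed (Cd68, Cd14 and Fcer1g), summing to between 145 and 152 TPM with empagliflozin and between 153 and 162 TPM in OM. Most of that was Fcer1g, at 115 ± 3.47 TPM with empagliflozin and 116 ± 4.09 TPM in OM (SD, n = 3 each), so the sums mainly follow that gene. The part of these 3 markers in the cytokine values was not tested. Ptprc, Itgam, Adgre1 and Csf1r were not listed, nor was any of 7 endothelial markers.

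Of the 8 listed cytokines, 5 were matched by symbol to the RefSeq promoter table (build GRCr8), as were Il1a and Il1b. Each promoter window runs from 250 bases before to 50 bases after an annotated start. The windows of Csf2 and Tnf are shown because these genes had the largest differences, and that of Il6 because its difference was the smallest among the cytokines that were lower. They lie at chr10:38889624-38889923 on the minus strand, at chr20:3626435-3626734 on the plus strand and at chr4:5894526-5894825 on the minus strand. Capitals mark a loose form of the NF-κB site (κB site), GGG and CC separated by any 5 bases, the C/EBP-type motif TTGCNNAA and the TATA box TATAAA on either strand.
Csf2: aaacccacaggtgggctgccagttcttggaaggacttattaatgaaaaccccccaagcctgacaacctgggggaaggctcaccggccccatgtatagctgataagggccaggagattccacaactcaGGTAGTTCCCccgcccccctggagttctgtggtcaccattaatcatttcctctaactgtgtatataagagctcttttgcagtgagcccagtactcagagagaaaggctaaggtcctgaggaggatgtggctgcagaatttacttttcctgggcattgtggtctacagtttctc
Tnf: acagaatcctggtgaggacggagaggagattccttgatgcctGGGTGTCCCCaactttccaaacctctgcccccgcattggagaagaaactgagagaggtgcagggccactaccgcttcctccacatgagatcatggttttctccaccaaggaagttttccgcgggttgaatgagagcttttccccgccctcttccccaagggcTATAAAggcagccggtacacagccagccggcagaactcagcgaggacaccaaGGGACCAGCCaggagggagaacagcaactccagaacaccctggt
Il6: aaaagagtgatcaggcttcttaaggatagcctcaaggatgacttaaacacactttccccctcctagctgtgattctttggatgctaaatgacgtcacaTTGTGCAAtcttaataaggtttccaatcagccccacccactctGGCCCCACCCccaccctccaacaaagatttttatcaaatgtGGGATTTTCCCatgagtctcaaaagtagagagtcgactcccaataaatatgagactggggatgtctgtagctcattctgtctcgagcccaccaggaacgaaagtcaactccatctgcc

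The Csf2 window held 1 match to the loose κB form, starting 123 bases before the annotated start. The Tnf window held 2, starting 208 bases before and 7 bases after its start, and a TATA box 46 bases before it. The Il6 window held 3, and a stretch that starts 68 bases before its start, GGGATTTTCC, also matched the narrower κB consensus. The third Il6 match overlaps that stretch by all but 1 base. The Il6 window also held a C/EBP-type motif, 152 bases before its start. Of all 33469 promoter windows, 47.3% held the loose κB form, 7.51% the κB consensus, 10.6% the C/EBP-type motif and 14.2% the TATA box, so the loose form is common. The AP-1 motif TGANTCA, present in 7.33% of windows, was found in the Il11 window at 142 bases before its start, in the Il1a window at 12 bases before its start, and in none of the 3 windows printed above. The CArG box of serum response factor, present in 1.64%, was in none of the 8 windows matched to the cytokines. A match describes letters in a window and is not a site of binding.

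The cytokines differed widely in level. Csf1 was the most abundant in both groups, at 277 ± 28.8 TPM with empagliflozin and 415 ± 44.8 TPM in OM (SD, n = 3 each), and 3.37% of tested genes had a higher mean over all libraries. Il6 followed, and then Lif. In the OM plus EMPA group the ranges of Csf1 and Il6 overlapped, although Csf1 was higher in each of the 3 libraries, and so did those of Il33 and Il11 and those of Tnf and Csf3. In the OM group the order below Lif was Il11, Tnf, Il33, Csf3 and Csf2, and the ranges of Tnf, Il33 and Csf3 overlapped between neighbours. Csf2 was the lowest in both groups, at 1.22 TPM with empagliflozin and 10.8 TPM in OM. By its mean over all libraries, which holds for neither group, 77.6% of tested genes were above it. Il33 thus stood beside Il11 in the OM plus EMPA group and beside Csf3 in the OM group. Summed over the 8 genes, the OM plus EMPA libraries held 760.5, 520.8 and 673.5 TPM and the OM libraries 1103, 762.6 and 940.4 TPM, of which Csf1 and Il6 together made up 74.7% to 78.4%. In bulk RNA, fewer cells that make a cytokine and less of its RNA per cell cannot be told apart.

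**Figure D1:**
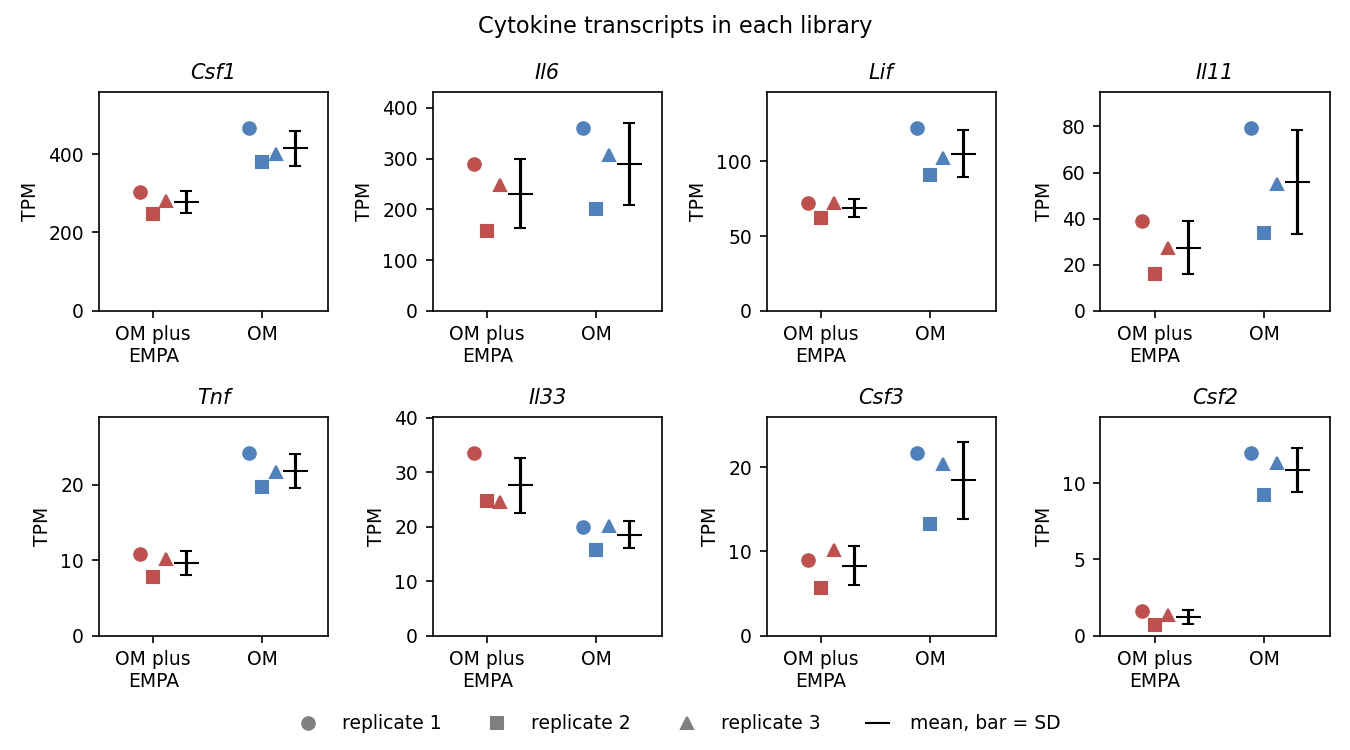
TPM of the 8 listed cytokines in each library (points, shape by replicate number), OM plus EMPA left of OM, with the mean and SD of each group (black). Each panel has its own axis from 0. Csf2 lies at 0.70 to 1.59 TPM with empagliflozin and at 9.21 to 11.97 TPM in OM, while Il33 is the 1 cytokine whose OM plus EMPA libraries all lie above the OM libraries.

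The 3 colony-stimulating factors were lower with empagliflozin. Csf2 (ENSRNOG00000026805) encodes GM-CSF, a growth and activation factor of granulocytes and macrophages, and lies on chromosome 10 from 38386945 to 38389199 on the minus strand in the authors' table, for which the sources used here give no genome build. It was at 1.59, 0.70 and 1.36 TPM in the OM plus EMPA libraries and at 11.97, 9.21 and 11.35 TPM in the OM libraries. Its mean with empagliflozin was 11.2% of the mean in the OM group, its log2 difference was -2.43 (SE 0.17), and only 1 tested gene had a larger decrease. The OM plus EMPA libraries are near the 1 TPM that was added before taking logs, which makes the log2 difference depend on that choice (-3.12 with 0.1 added).

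Csf3 encodes G-CSF, the main growth factor of neutrophils (ENSRNOG00000008525, chromosome 10 from 83661207 to 83663603, plus strand). It was at 9.02, 5.68 and 10.19 TPM in the OM plus EMPA libraries and at 21.64, 13.22 and 20.41 TPM in the OM libraries. The groups did not overlap, with replicate 2 the lowest of each group, and the log2 difference was -1.07 (SE 0.23), 45.0% of the OM mean. Csf1 encodes M-CSF, on which macrophages depend for survival (ENSRNOG00000018659, chromosome 2 from 195377215 to 195411704, minus strand). It was at 304, 247 and 280 TPM in the OM plus EMPA libraries and at 465, 379 and 401 TPM in the OM libraries, a log2 difference of -0.58 (SE 0.10) or 66.8% of the OM mean. The more abundant of these factors thus had the smaller relative difference. In TPM, however, Csf1 was lower by far more than Csf2 and Csf3.

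Tnf (ENSRNOG00000070745), which encodes the inflammatory cytokine TNF-α, lies on chromosome 20 from 3622011 to 3624629 on the plus strand. It was at 10.89, 7.84 and 10.20 TPM in the OM plus EMPA libraries and at 24.20, 19.74 and 21.68 TPM in the OM libraries. The highest OM plus EMPA library was below the lowest OM library. The mean was 44.1% of that in the OM group and the log2 difference -1.11 (SE 0.12), the 51st largest decrease among tested genes.

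The 3 IL-6 family genes had lower means with empagliflozin, and only Lif had groups that did not overlap. Lif encodes leukaemia inhibitory factor (ENSRNOG00000007002, chromosome 14 from 79128333 to 79140482, plus strand). It was at 72.2, 61.9 and 72.1 TPM in the OM plus EMPA libraries and at 122, 91.1 and 102 TPM in the OM libraries, with a log2 difference of -0.60 (SE 0.11). Il11 (ENSRNOG00000017386), an IL-6 family cytokine that acts on fibroblasts and other stromal cells, lies on chromosome 1 from 69068137 to 69076129 on the plus strand. It was at 39.18, 15.97 and 27.31 TPM in the OM plus EMPA libraries and at 79.13, 33.99 and 54.87 TPM in the OM libraries. Its mean was 49.1% of the OM mean and its log2 difference -1.01, close to those of Tnf and Csf3, but with an SE of 0.36 and an overlap of the groups at OM plus EMPA replicate 1 and OM replicate 2. Against the OM library of the same number, Il11 with empagliflozin was at 49.5%, 47.0% and 49.8%, though no label says that the numbers pair the libraries. The listed span of Il11 overlaps that of Tmem238, which was at 3.62 to 4.55 TPM with empagliflozin and 4.09 to 5.16 TPM in OM, so the split of reads between these genes is uncertain.

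Il6 encodes interleukin-6, a cytokine of the acute-phase response (ENSRNOG00000010278, chromosome 4 from 5211449 to 5219178, minus strand). It was at 290, 157 and 247 TPM in the OM plus EMPA libraries and at 359, 201 and 308 TPM in the OM libraries. The groups overlapped over most of their range. The log2 difference was -0.33 with an SE of 0.26, and it ran from -0.57 without OM replicate 2 to -0.07 without OM plus EMPA replicate 2. Replicate 2 was the lowest of each group for Il6, and each of these fits kept the other one. Against the OM library of the same number, Il6 with empagliflozin was at 80.6%, 78.1% and 80.3%. No label says that the numbers pair the libraries. The entries of Il6, Lif and Il33 join an assembled transcript model to the annotated gene, as their identifiers show.

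Il33 was the 1 listed cytokine with a higher level in the OM plus EMPA group. It encodes interleukin-33, an IL-1 family protein held in the nucleus and released from damaged cells as an alarm signal (ENSRNOG00000016456, chromosome 1 from 227721435 to 227736618, plus strand). It was at 33.5, 24.8 and 24.6 TPM in the OM plus EMPA libraries and at 19.9, 15.7 and 20.2 TPM in the OM libraries, which do not overlap. Its mean was 149% of the OM mean and its log2 difference 0.54 (SE 0.14), the 167th largest increase among tested genes.

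**Figure D2:**
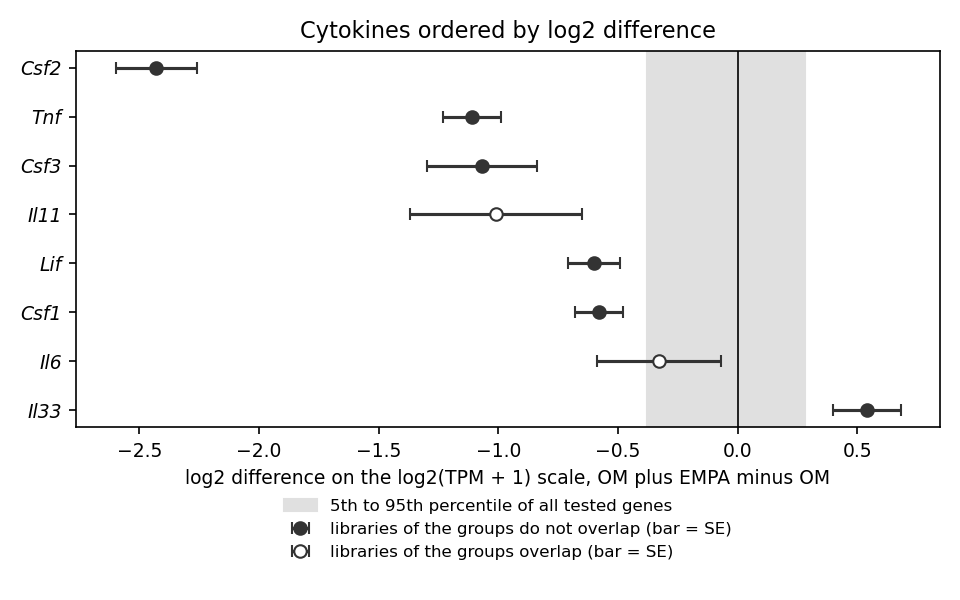
Log2 difference of TPM + 1 for each listed cytokine (OM plus EMPA minus OM), with its SE. Filled points are genes whose libraries do not overlap between the groups, open points (Il11 and Il6) those that do. The grey band is the 5th to 95th percentile of all tested genes, -0.38 to 0.28, and Il6 is the 1 cytokine inside it.

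Of the 8 cytokines, 5 were called lower and 0 higher in the limma fit over all genes, beside 4.86% of tested genes called lower and 2.06% higher. At an unadjusted p under 0.05 these counts were 6 and 1, beside 17.6% and 6.42% of tested genes. The called genes were Csf1, Csf2, Csf3, Tnf and Lif, the same 5 whose libraries lay wholly below those of the OM group, a pattern that 22.5% of tested genes showed, while 7.85% showed the opposite pattern of Il33. These genes were chosen from this comparison, so nothing is read from these counts. The count moved with single libraries. Lif was not called with replicate 2 of OM plus EMPA (log2 difference -0.53) or 3 of OM (-0.61) missing. Csf3 was not called with replicate 1 (-1.14) or 2 (-0.85) of OM plus EMPA, or 1 (-0.94) or 3 (-0.98) of OM, missing, nor in limma without the trend (-1.07). Il33 was called higher under median-ratio scaling (0.60) and with rescaling without mitochondrially encoded genes (0.57). With the replicate number as a block, which no label says pairs the libraries, Il6 and Il11 were called lower too and Il33 higher. The median log2 difference of the 8 was -0.80, against -0.05 over all tested genes, and was -0.60 without Csf2 under a filter of 1 TPM in every library.

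The cytokines varied between libraries of a group, each by more than the median tested gene. The coefficient of variation (SD as a percent of the mean) was 42.2% for Il11, 38.0% for Csf2, 29.3% for Il6 and 28.2% for Csf3 in the OM plus EMPA group. In the OM group it was 40.3% for Il11, 13.4% for Csf2, 28.0% for Il6 and 24.7% for Csf3. The median over tested genes was 6.50% in the OM plus EMPA group and 6.72% in the OM group. Replicate 2 was the lowest library for 7 of the 8 cytokines in the OM plus EMPA group and for 8 of the 8 in the OM group. Over all tested genes, replicate 2 was the lowest for 42.5% in the OM plus EMPA group, for 33.0% in the OM group and for 17.3% in both. Replicate 1 was the highest for 7 of the 8 cytokines in each group, which was not counted over all tested genes. Il11 ranged most, from 58.1% to 143% of its group mean in the OM plus EMPA group and from 60.7% to 141% in the OM group.

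**Figure D3:**
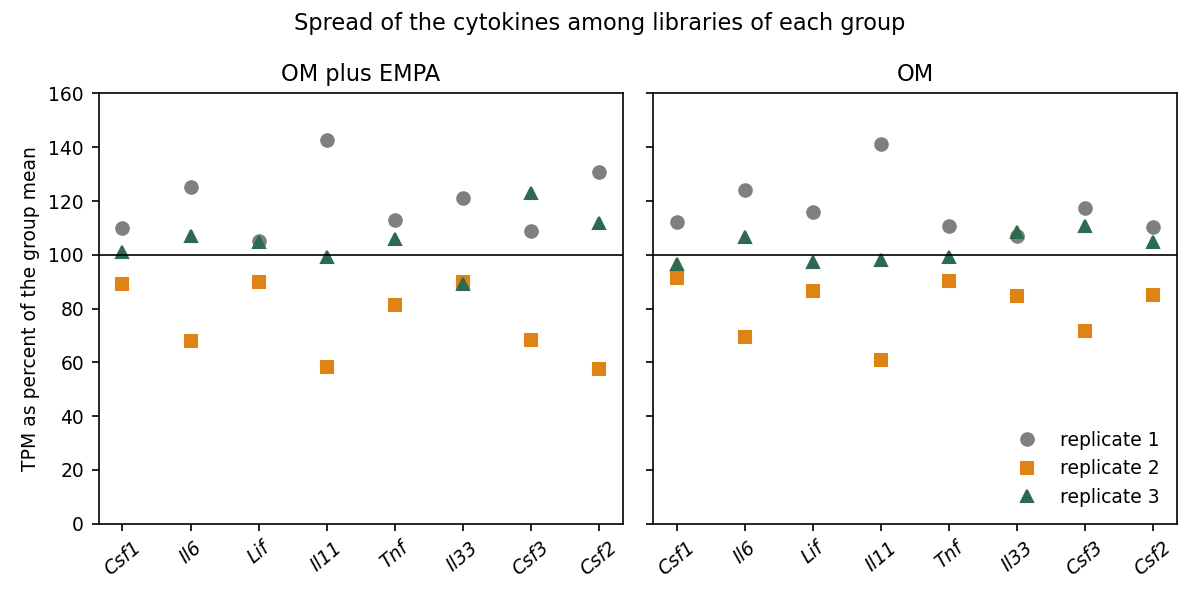
TPM of each listed cytokine in each library as a percent of the mean of its group, for OM plus EMPA (left) and OM (right), with replicates by colour and shape. Replicate 2 lies below 100 for every cytokine in both groups, lowest for Csf2 at 57.5 with empagliflozin and for Il11 at 60.7 in the OM group.

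The lists below hold genes of the pathways around these cytokines. They were defined by the role of their genes, but were written with earlier results of these data known. Their counts and p-values are therefore given as a description. In the counts of all these lists, fell and rose mean called lower or higher by limma at an adjusted p of at most 0.05. Of all tested genes, 4.86% were so called lower and 2.06% higher. Of 13 receptor chains, 10 were listed and tested, 2 fell and 1 rose. At an unadjusted p under 0.05 the limma counts were also 2 and 1, beside 17.6% and 6.42% of all tested genes. The chains not listed were Csf1r, the receptor of M-CSF, Csf2rb, the signalling chain for GM-CSF, and Csf3r, the receptor of G-CSF, so of the receptors for the colony-stimulating factors only the binding chain Csf2ra was measured. It was at 7.06 ± 0.457 TPM with empagliflozin and 7.62 ± 0.611 TPM in OM (SD, n = 3 each), with a log2 difference of -0.10 (SE 0.09). The median of the 10 was -0.06.

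The gp130 gene Il6st fell to 110, 98.3 and 104 TPM in the OM plus EMPA libraries, against 139, 132 and 141 TPM in the OM libraries (log2 difference -0.39, SE 0.05, adjusted p = 0.00714 from limma). Lifr, which pairs with gp130 to bind LIF, rose to 10.27, 9.26 and 9.66 TPM, against 6.14, 6.78 and 6.44 TPM in the OM group (log2 difference 0.53, SE 0.08, adjusted p = 0.0109 from limma). These receptor partners thus moved in opposite directions, and both were called whichever library was left out (adjusted p up to 0.0328 and 0.0421 from limma). Il6r, the IL-6 binding chain, and Il11ra1, the IL-11 binding chain, had log2 differences of -0.02 (SE 0.11) and 0.01 (SE 0.08). For the IL-1 family, the receptor gene Il1r1 was at 162, 169 and 158 TPM in the OM plus EMPA libraries and at 184, 200 and 195 TPM in the OM libraries (log2 difference -0.24, SE 0.05, adjusted p = 0.0256 from limma). That call was lost under median-ratio scaling of the libraries and in 4 of the 6 fits with 1 library left out, that is, with replicate 1 or 3 of OM plus EMPA, or 2 or 3 of OM, missing (adjusted p up to 0.0892 from limma, log2 difference -0.28 to -0.22). Its partner Il1rap had a log2 difference of -0.18 (SE 0.10), and Il1rl1, the receptor of IL-33, was at 31.5, 30.3 and 21.4 TPM against 25.3, 21.4 and 15.6 TPM in the OM group, which overlap (0.41, SE 0.19). The TNF receptors Tnfrsf1a and Tnfrsf1b had log2 differences of 0.06 (SE 0.05) and -0.15 (SE 0.10) and were not called.

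Of 4 antagonists and inhibitory receptors of the IL-1 family 3 were tested, 1 of which fell and 0 rose. The limma counts at an unadjusted p under 0.05 were also 1 and 0, beside 17.6% and 6.42% of all tested genes. Il1rn, which encodes the secreted antagonist that blocks the IL-1 receptor, was at 197, 234 and 227 TPM in the OM plus EMPA libraries and at 295, 304 and 394 TPM in the OM libraries (log2 difference -0.58, SE 0.11, adjusted p = 0.0272 from limma). It was thus an abundant transcript in cells for which the table lists neither Il1a nor Il1b. It was not called when OM plus EMPA replicate 1, 2 or 3 was left out (adjusted p up to 0.0772 from limma), and its log2 difference ran from -0.66 to -0.45.

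Of 10 genes that process or release TNF and IL-1 family cytokines, 4 fell and 0 rose, with a median log2 difference of -0.25. At an unadjusted p under 0.05 the limma counts were 6 and 0, beside 17.6% and 6.42% of all tested genes. Casp1, the protease that cuts the IL-1β precursor, was at 23.9 ± 2.38 TPM with empagliflozin and 34.4 ± 1.03 TPM in OM (SD, n = 3 each; log2 difference -0.51, SE 0.08, adjusted p = 0.00986 from limma). It was called whichever library was left out. Gsdmd, whose product forms the membrane pores through which IL-1β leaves the cell, Rhbdf2, a partner needed for the maturation of the TNF-cleaving enzyme, and Adam17, that enzyme itself, had log2 differences of -0.28, -0.40 and -0.30 (adjusted p = 0.0306, 0.0411 and 0.0484 from limma). Each of these 3 kept its call in only 1 of 6 fits with 1 library left out. Those were the fit without OM replicate 2 for Gsdmd, without OM plus EMPA replicate 1 for Rhbdf2 and without OM plus EMPA replicate 3 for Adam17, and the adjusted p from limma was up to 0.0862, 0.125 and 0.147 in the others. With median-ratio scaling 1 gene of the list was called.

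Of 13 RNA-binding proteins and kinases that control the decay or translation of cytokine mRNA, 0 were called in either direction by limma, and 4 were lower and 0 higher at an unadjusted p under 0.05, beside 17.6% and 6.42% of all tested genes. Their median log2 difference was -0.13. Zfp36, which encodes tristetraprolin and binds AU-rich elements of the Tnf and Csf2 mRNAs, was at 44.5, 36.4 and 42.0 TPM in the OM plus EMPA libraries and at 47.8, 44.6 and 41.8 TPM in the OM libraries (log2 difference -0.13, SE 0.08). It was named here for that role, outside the rule for named genes and after its values were seen.

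Of 15 genes that TNF and IL-1 induce through NF-κB 14 were tested, of which 8 fell and 0 rose (12 and 0 at an unadjusted p under 0.05 in limma, beside 17.6% and 6.42% of all tested genes), with a median log2 difference of -0.67. Tnfaip3, a feedback inhibitor of NF-κB, was at 14.0 ± 1.35 TPM with empagliflozin and 37.8 ± 3.12 TPM in OM (SD, n = 3 each), a log2 difference of -1.37 (SE 0.09, adjusted p = 0.00165 from limma). The inhibitor Nfkbie was at 31.6 ± 2.06 TPM against 53.6 ± 4.63 TPM in the OM group (log2 difference -0.75, SE 0.07, adjusted p = 0.00314 from limma). Tnfaip2 was at 44.7 ± 7.08 TPM against 81.8 ± 1.94 TPM in the OM group (log2 difference -0.87, SE 0.10, adjusted p = 0.00454 from limma), and Birc3, an inhibitor of cell death, at 5.58 ± 0.580 TPM against 10.5 ± 0.795 TPM in the OM group (log2 difference -0.81, SE 0.10, adjusted p = 0.00482 from limma). These 4 genes were called whichever library was left out. Of the other called genes, Nfkbia and Icam1 also kept their call in 6 of 6 such fits, but Ccl2 in 3 and Ptgs2 in 1. Vcam1 and Sod2 had log2 differences of -0.03 (SE 0.04) and -0.04 (SE 0.06) and were not called.

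Of 9 genes that IL-6 family cytokines induce through STAT3, all tested, 1 fell and 0 rose (1 and 1 at an unadjusted p under 0.05 in limma, beside the same shares), with a median log2 difference of 0.00. The 1 that fell was Timp1, a metalloprotease inhibitor, at 1620 ± 60.2 TPM with empagliflozin and 1960 ± 45.1 TPM in OM (SD, n = 3 each; log2 difference -0.28, SE 0.05, adjusted p = 0.0188 from limma). It was not called under median-ratio scaling, nor with replicate 1 or 2 of OM plus EMPA, or 1 or 3 of OM, missing (adjusted p up to 0.0744 from limma). Whether the TNF and IL-1 list and the STAT3 list differ was not tested.

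Of 59 other cytokine genes 17 were listed and 15 tested, of which 3 fell and 0 rose (4 and 0 at an unadjusted p under 0.05 in limma, beside the same shares), with a median log2 difference of -0.14. Ebi3, a subunit shared by IL-27 and IL-35, was at 1.75, 0.92 and 1.64 TPM in the OM plus EMPA libraries and at 4.46, 4.25 and 3.72 TPM in the OM libraries (log2 difference -1.09, SE 0.16, adjusted p = 0.00994 from limma). Tnfsf15, a ligand of the TNF superfamily, was at 21.4, 23.3 and 26.6 TPM against 35.2, 34.9 and 41.6 TPM in the OM group (log2 difference -0.63, SE 0.10, adjusted p = 0.0116 from limma). Both were called whichever library was left out (adjusted p up to 0.0415 and 0.0490 from limma). Il36g, of the IL-1 family, was at 0.33, 0.73 and 0.41 TPM against 1.56, 1.68 and 1.81 TPM in the OM group (log2 difference -0.86, SE 0.15, adjusted p = 0.0188 from limma), close to the 1 TPM filter, which it no longer passed without any 1 OM library, and it was not called without OM plus EMPA replicate 1 or 3 (adjusted p up to 0.0599 from limma). Of the leukocyte markers, Cd68, a lysosomal protein abundant in macrophages, moved with these cytokines. It was at 9.52, 5.10 and 7.86 TPM in the OM plus EMPA libraries and at 13.6, 12.8 and 14.9 TPM in the OM libraries (log2 difference -0.83, SE 0.18, adjusted p = 0.0378 from limma), and was not called with replicate 3 of OM plus EMPA, or any 1 OM library, missing (adjusted p up to 0.114 from limma). Cd14 and Fcer1g had log2 differences of -0.15 (SE 0.14) and -0.00 (SE 0.04). 

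**Figure D4:**
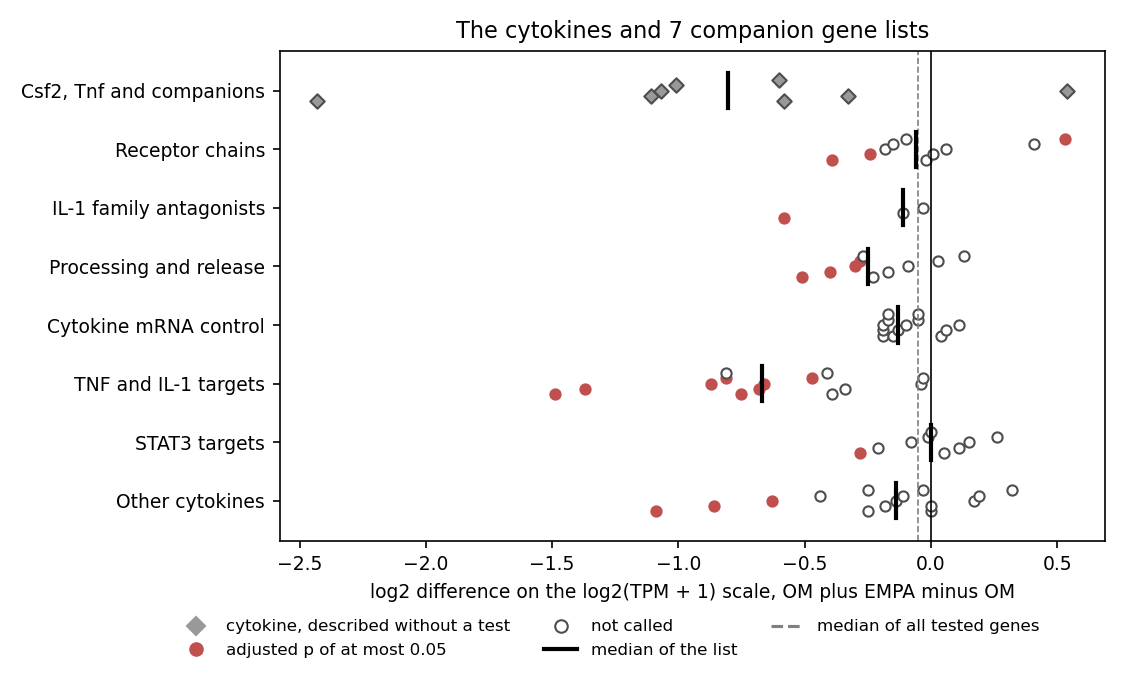
Each tested gene of 7 lists, and the 8 cytokines (diamonds), by log2 difference of TPM + 1 (OM plus EMPA minus OM). Filled circles were called by limma, open circles were not, bars are list medians and the dashed line is the median of all tested genes, -0.05. The median is -0.67 for the TNF and IL-1 targets and 0.00 for the STAT3 targets.

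The genes whose profile over the 6 libraries was most like that of Csf2, by Pearson's r of log2(TPM + 1) and as a description, were Psmb8 (0.9996), Rhoa (0.9976), Ptprf (0.9963), Ddi2 (0.9960) and Cylc1 (0.9958). Psmb8 encodes a subunit of the immunoproteasome, and was at 42.1, 38.3 and 41.6 TPM in the OM plus EMPA libraries and at 63.9, 59.9 and 63.7 TPM in the OM libraries. Likeness of profile is not likeness of size. The small GTPase gene Rhoa followed the same pattern with a log2 difference of -0.04. For Tnf they were Nfkbia (0.9984), Mrpl43 (0.9984), Sp110 (0.9979), Adar (0.9972) and Cx3cl1 (0.9968). Nfkbia encodes the NF-κB inhibitor IκBα and was at 92.3, 77.2 and 92.1 TPM in the OM plus EMPA libraries and at 151, 130 and 140 TPM in the OM libraries. Libraries of a group share their treatment, so a gene that was likewise lower with empagliflozin tends to score high, and 1044 genes with a symbol had an r over 0.9 with Csf2 and 1085 with Tnf.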

How the data were processed

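RNA-seq values of 6 libraries of rat VSMCs were analysed, 3 of the OM plus EMPA group and 3 of the OM group. The authors deposited TPM of 13526 genes, of which 11889 have a symbol, from paired reads. Among the tools in the submitters' processing notes are RSEM, HISAT2 2.0.5, fastp and DESeq2, with no roles stated, and a genome build was not given in the sources. The deposited table also holds the log2 fold change, p-value and adjusted p-value (FDR) of the authors' own comparison, which were not used, and a second table repeats 181 of its genes. The number of value columns without a known sample was 0. TPM keep no depth, so no precision by depth can be given.

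The 12564 genes whose mean reached 1 TPM were tested with limma on log2(TPM + 1), with the group as the only term and a trend of variance with mean (4 residual and 3.8 prior degrees of freedom), with Benjamini-Hochberg adjustment. The adjusted p of 0.05 is the threshold in the study's methods. The members and gene lists were chosen with earlier results of these data known. Named genes are all listed members, all tested receptor chains, up to 4 called genes of each other list with the smallest p and groups that do not overlap, and the 5 genes most like Csf2 and Tnf. Zfp36, Icam1, Ccl2, Ptgs2, Vcam1, Sod2, the smooth muscle and leukocyte markers and Tmem238 were named outside this rule. The promoter of Il6 was added to those of Csf2 and Tnf after its values were seen. Promoter windows are from RefSeq (GRCr8), searched on both strands, and protein sequences were not used here. Alternatives were a pseudocount of 0.1, no filter, a filter of 1 TPM in each library, median-ratio scaling, rescaling without mitochondrially encoded genes, the replicate number as a block, limma without the trend, an adjusted p of 0.01 and each library left out. Tested on simulated data with the spread of these 12564 genes, the fit called 87.5% of 200 genes given a log2 change of 1, with 9 false calls, and called 0 when none was changed. The simulated noise was independent between genes and held no deviation of a library shared by many genes. The false calls under such shared deviations were therefore not tested. R 4.3.3, limma 3.58.1, Python 3.11.15, pandas 2.3.3, numpy 2.4.6 and matplotlib 3.10.9 were used.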

Additional observations from a re-analysis of the deposited data

How the results depend on the processing

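The log2 difference of each listed cytokine kept its sign under the alternatives that gave it a value. It moved by more than the spread between replicates only for Csf2 with a pseudocount of 0.1 (-3.12). That spread was the SD of the same cytokine within groups, so the more variable cytokines could move further within it. Without OM plus EMPA replicate 2, Il6 went from -0.33 to -0.07 and Il11 from -1.01 to -0.68, both within that spread. Without 1 library the ranges were -2.56 to -2.25 for Csf2, -1.20 to -0.98 for Tnf, -1.28 to -0.85 for Csf3, -0.65 to -0.50 for Csf1, -0.70 to -0.49 for Lif, -1.32 to -0.68 for Il11, -0.57 to -0.07 for Il6 and 0.40 to 0.62 for Il33. The median of the cytokines was -0.94 to -0.60, with 3 to 5 called lower and 0 called higher. It was -0.60 with at least 1 TPM in each library, a filter that removes Csf2. Il33 was called higher, as the 1 cytokine so called, with median-ratio scaling, with rescaling without mitochondrially encoded genes and with the replicate block.

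The genes called lower and higher were 611 and 259. They were 381 and 390 with median-ratio scaling, 366 and 154 without the trend, 159 and 35 at an adjusted p of 0.01, and 245 to 438 and 80 to 216 without 1 library. With median-ratio scaling, 1 receptor chain, 1 processing gene and 0 STAT3 targets fell, and 1 STAT3 target rose. Without the trend, 4 cytokines (all but Csf3 of the 5), 1 receptor chain, 1 processing gene and 0 antagonists were lower. At an adjusted p of 0.01, 1 receptor chain, 1 processing gene, 1 other cytokine, 0 antagonists and 0 STAT3 targets were lower, and 0 receptor chains were higher. With at least 1 TPM in each library 1 other cytokine was lower. Without 1 library, 1 to 2 receptor chains, 0 to 1 antagonists, 1 to 2 processing genes, 0 to 1 genes of mRNA control, 6 to 10 TNF and IL-1 targets, 0 to 1 STAT3 targets and 2 to 3 other cytokines were lower, and 1 receptor chain and 0 to 1 other cytokines were higher. The cause of these differences was not tested, except that fewer libraries or genes entered where some were left out.

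The replicate numbers of the labels were not taken to pair the libraries, since no label says that they do. Deviations of same-numbered libraries from their group means correlated by 0.0979, 0.162 and 0.0575 over tested genes. Libraries of different numbers correlated by -0.12 to 0.0153, so each library correlated best with its own number. Whether the numbers mark shared cultures was not tested. The replicate block gave 951 genes lower and 449 higher, with 7 of the cytokines lower, that is Il6 and Il11 too, and with 2 receptor chains and 1 STAT3 target higher and 1 gene of mRNA control lower. With the block the SE of the log2 difference was 0.03 for Il6 and 0.04 for Il11, against 0.26 and 0.36 without it. Il6 in OM plus EMPA replicates 1, 2 and 3 was 80.6%, 78.1% and 80.3% of its value in the OM library of the same number, and Il11 49.5%, 47.0% and 49.8%.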
